A study of Drosophila melanogaster with 18 samples.

Results

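Histones reach chromatin in different ways. The bulk of H3 and H4 is made from replication-dependent genes during S phase and is placed behind the replication fork by CAF-1, the chromatin assembly factor whose large and middle subunits are encoded by *CAF1-p180* and *CAF1-p105* (RefSeq synonyms of the symbols in use). Histone variants such as H3.3 are made throughout the cell cycle from polyadenylated transcripts. The genes *His3.3A* and *His3.3B* encode the same protein, H3.3, which the chaperone Hira can deposit independently of replication. *His4r* encodes an H4 protein from a transcript of the polyadenylated kind. The gene *cid* encodes the centromeric H3 variant (CENP-A in vertebrates), and *cal1* encodes the factor that loads it. Asf1 hands H3-H4 to both CAF-1 and Hira, while Slbp binds the stem-loop at the end of replication-dependent histone mRNAs. These 10 genes form a set by name and function, and no measured value enters the rule that defines it, although earlier results of these data were known when it was drawn up. They were identified on the array by their CG numbers, and 13 probes measured them (2 each for *His3.3A*, *His3.3B* and *CAF1-p180*, 1 each for the others). All 10 genes had a probe well above background on all 18 arrays, among 9915 gene symbols with a probe that was kept for testing and 13086 symbols that were matched on the array.

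Transcript levels came from S2R+ cells, an adherent *Drosophila* line of embryonic origin with blood cell character. Dishes received 30 µg of double-stranded RNA (dsRNA) of *His2Av*, the gene of the fly's H2A.Z-type histone (H2Av RNAi), or, in the controls, of *lacZ*, which the fly lacks (lacZ RNAi). After 4 days the dishes spent 24 h at 14, at 25 or at 30 °C, which gave 6 groups of 3 replicates. All groups were thus dsRNA-treated and none was left without dsRNA. The dishes meant for 14, 25 and 30 °C had been seeded at different densities, with the fewest cells for 30 °C, so that seeding and temperature go together. The study describes the replicates as 3 replicate experiments, and the labels number them without stating what a number shares across groups.

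*His2Av*, the target, was examined first. Its brighter probe had log2 signals of 15.04 to 16.41 on the 9 lacZ RNAi arrays and of 11.61 to 13.82 on the 9 H2Av RNAi arrays, without overlap. The remaining signal was 11.3% of the control at 14 °C, 11.9% at 25 °C and 6.48% at 30 °C, and 4.64%, 3.45% and 1.56% with the other *His2Av* probe. H2Av RNAi replicate 2 kept the most signal at 14 °C (13.65) and at 25 °C (13.82), and without it the brighter probe left 7.32% and 8.45%. All 10 blood cell markers checked were well above background on all 18 arrays, *srp* and *crq* among them. Their mean log2 signals ranged from 6.07 (*NimC1*) to 15.67 (*crq*). Some markers of other tissues were also detected on all 18 arrays, namely *elav* (mean 11.73), *nSyb*, *vas*, *bam* and *Mhc*. The muscle gene *Act57B* and the fat body gene *Fbp1* were detected on 17. The follicle gene *tj* was detected on 8 arrays, the glial gene *repo* on 1 and the fat body gene *Lsp2* on 0. Correlations of all probes were 0.957 to 0.995 within groups. On average, lacZ RNAi 25 °C replicate 1 correlated least with its group (0.962), and lacZ RNAi 30 °C replicate 2 was next (0.963). Every group occupied a separate slide and the slides were scanned in the order of temperature, so slide, scan order and group cannot be told apart in any comparison.

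Changes are given below as differences of normalized log2 signal, with the standard error (SE) of a limma fit over all 18 arrays. A gene was called, at any fold, if its p after Benjamini-Hochberg adjustment over the 21775 tested probes was under 0.05. In whole cultures, fewer cells of a kind and less RNA per cell cannot be told apart.

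To learn whether depletion of the *His2Av* transcript was accompanied by changes in other histone supply genes, the RNAi groups of each temperature were set against each other. *Hira* was the member with a called rise, at 14 and at 25 °C, and *cid* was the member with a called fall, at 25 °C. At 14 °C, 1 of 10 members was called higher and 0 lower, beside 2.86% of all probes higher and 4.35% lower. At 25 °C, 1 member was higher and 1 lower, beside 11.2% and 15.9% of all probes. At 30 °C, 0 members were called (lowest adjusted p = 0.316, for *Slbp*, and 0 members at an unadjusted p under 0.05), beside 4.87% of all probes higher and 7.30% lower. With the temperatures averaged, 1 member was higher (*Hira*) and 2 were lower (*cid* and *CAF1-p105*), beside 16.1% and 19.8% of all probes. The median change of the 10 members was -0.26 at 14 °C, -0.37 at 25 °C and 0.02 at 30 °C, where the medians of all probes were -0.03, 0.02 and 0.02. The 0 calls at 30 °C became 1 (*Slbp*, 0.32, adjusted p = 0.0432) with array quality weights, under which 38% of all probes were called in this comparison.

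**Figure D1:**
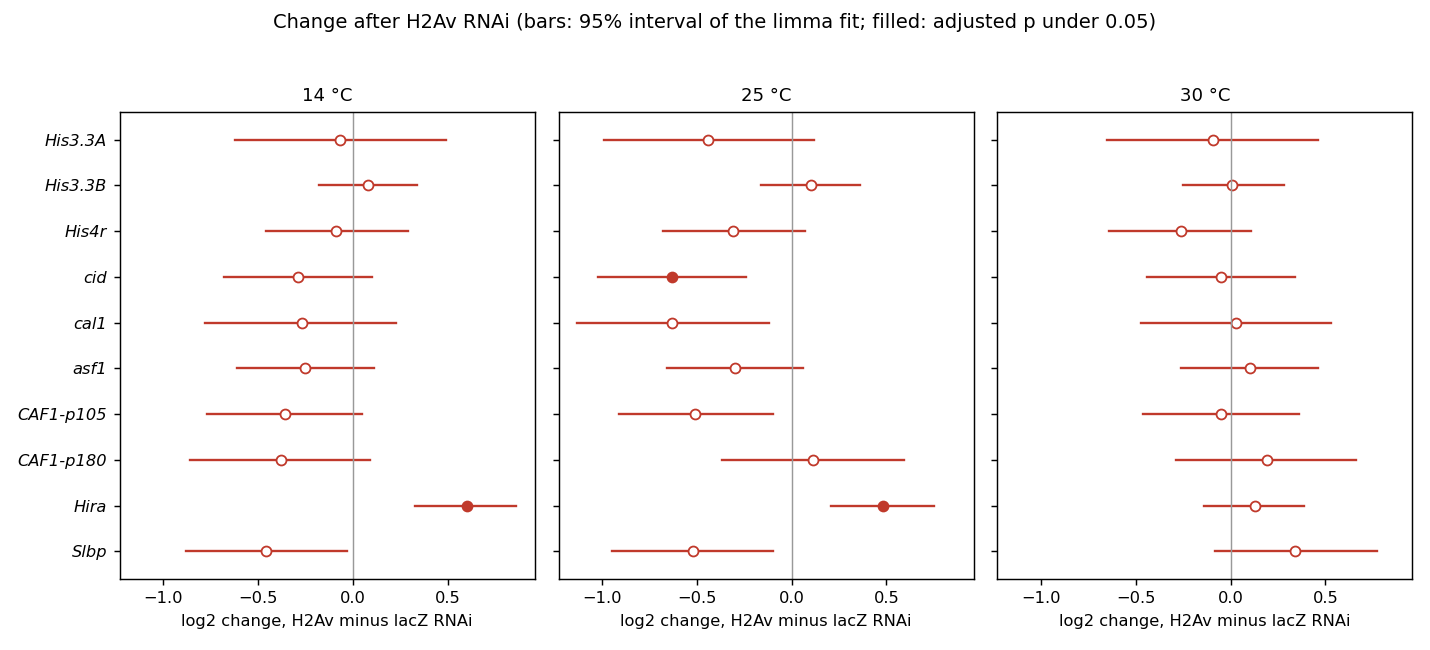
Log2 change after H2Av RNAi (H2Av minus lacZ) for the main probe of each member at 14, 25 and 30 °C, with 95% intervals of the limma fit as bars and filled circles for an adjusted p under 0.05. *Hira* stands to the right of 0 at 14 °C (0.60) and 25 °C (0.48), and *cid* to the left at 25 °C (-0.63), while at 30 °C all circles are open.

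Between 14 °C and the warmer temperatures, more members were called than between the RNAi groups of any temperature. Seeding, slide and scan order went with temperature in these comparisons. Between 14 and 30 °C in lacZ RNAi, 5 of 10 members were called lower in the cool (*His3.3B*, *cid*, *CAF1-p105*, *CAF1-p180* and *Slbp*) and 0 higher, beside 16.6% of all probes lower and 15.3% higher. In H2Av RNAi, 6 were lower (those 5 and *asf1*) and 1 was higher (*Hira*), beside 20.2% and 18.2% of all probes. The median change of the members was -0.68 in both RNAi groups, where the medians of all probes were -0.01 and -0.03. Against 25 °C, 5 members were lower at 14 °C in lacZ RNAi and 0 higher, beside 12.6% and 9.03% of all probes. The corresponding counts in H2Av RNAi were 4 lower and 0 higher, beside 7.07% and 6.24%. Comparisons with the same 14 °C arrays share them and are not independent of each other.

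Between 30 and 25 °C, 2 members were called in lacZ RNAi and 4 in H2Av RNAi. In lacZ RNAi, 2 were higher at 30 °C (*His3.3B* and *CAF1-p180*) and 0 lower, beside 6.64% of all probes higher and 8.58% lower. In H2Av RNAi, 3 were higher (*His3.3B*, *CAF1-p180* and *Slbp*) and 1 was lower (*Hira*), beside 5.75% and 6.26%. A list of 12 S phase genes, such as *PCNA* and *Orc1*, moved with temperature as well. In the comparison of 14 with 30 °C, 11 of 12 were lower in lacZ RNAi (median -1.23) and 12 of 12 in H2Av RNAi (median -1.59), with 0 higher. Of 10 mitosis genes, 5 were lower in lacZ RNAi (median -0.42) and 8 in H2Av RNAi (median -0.75), with 0 higher. Beside these S phase and mitosis counts, 16.6% of all probes were lower in lacZ RNAi and 20.2% in H2Av RNAi. Whether the share of cells in S phase entered into the members' temperature changes was not tested.

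**Figure D2:**
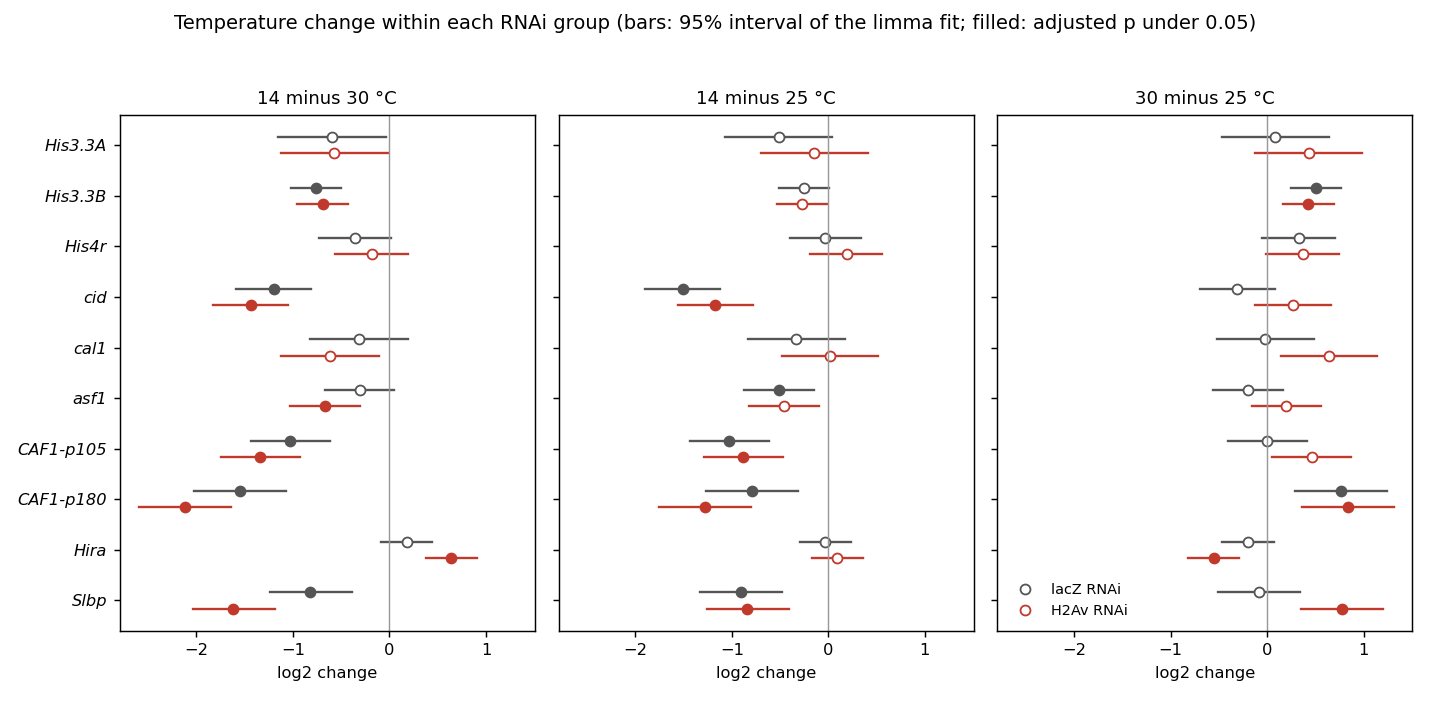
Log2 change between temperatures for the main probe of each member, in lacZ RNAi (grey) and H2Av RNAi (red), with 95% intervals of the limma fit as bars and filled circles for an adjusted p under 0.05. In the comparison of 14 with 30 °C the circles of *CAF1-p180*, *cid*, *CAF1-p105* and *Slbp* lie furthest to the left (-1.55, -1.20, -1.03 and -0.82 in lacZ RNAi), and *Hira* is the member to the right of 0.

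The H3.3 genes are described first. *His3.3B* was lower at 14 than at 30 °C in both RNAi groups with both of its probes, and was not called between the RNAi groups with either. Its brighter probe had log2 signals of 16.50, 16.55 and 16.61 at 14 °C, then of 16.65, 16.95 and 16.81 at 25 °C, then of 17.39, 17.34 and 17.21 at 30 °C in lacZ RNAi. In H2Av RNAi the signals were 16.63, 16.61 and 16.65 at 14 °C, then 16.97, 16.82 and 16.92 at 25 °C, then 17.45, 17.21 and 17.32 at 30 °C. Each temperature thus occupied its own range within an RNAi group, with the 30 °C arrays highest and the 14 °C arrays lowest. The change from 30 to 14 °C was -0.76 (SE 0.12, adjusted p = 0.000325) in lacZ RNAi and -0.69 (SE 0.12, adjusted p = 0.00054) in H2Av RNAi. The step from 25 to 30 °C was 0.51 (SE 0.12, adjusted p = 0.0146) in lacZ RNAi and 0.42 (SE 0.12, adjusted p = 0.0373) in H2Av RNAi, whereas 14 against 25 °C was not called (-0.25 and -0.27, adjusted p = 0.153 and 0.17).

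The 25 to 30 °C calls of *His3.3B* were close to the threshold. Without lacZ RNAi 30 °C replicate 1 the adjusted p in lacZ RNAi was 0.0576, and with the arrays of these 2 groups alone it was 0.296. In H2Av RNAi the call was lost when any of the 3 lacZ RNAi 14 °C arrays, the 3 H2Av RNAi 25 °C arrays or the 3 H2Av RNAi 30 °C arrays was left out (adjusted p = 0.0507 to 0.144). The dimmer probe for *His3.3B* gave larger steps in the same comparisons, with 1.20 (SE 0.21, adjusted p = 0.00317) from 25 to 30 °C in lacZ RNAi and 0.88 (SE 0.21, adjusted p = 0.0161) in H2Av RNAi. For 14 against 25 °C it gave -0.02 and -0.07, so that the dimmer probe placed nearly all of the difference between 25 and 30 °C. It shared the sign in 10 of 10 comparisons and the call in 10 of 10, and across the 18 arrays the probes of *His3.3B* correlated with r of 0.905. After H2Av RNAi the brighter probe differed by 0.08 at 14 °C (95% interval of the fit from -0.18 to 0.34) and by 0.10 and 0.01 in the warmer groups. Averaged over the temperatures it differed by 0.06 (adjusted p = 0.511), and by 0.32 with 75th percentile scaling (adjusted p = 0.0118), where the median of all probes was 0.25. The dimmer *His3.3B* probe differed by 0.40 at 14 °C, where its H2Av RNAi arrays were all above the controls, by 0.44 at 25 °C and by 0.12 at 30 °C (SE 0.21, adjusted p = 0.305, 0.132 and 0.796). Its difference averaged over the temperatures was 0.32 (SE 0.12, adjusted p = 0.0546).

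*His3.3A*, which encodes the same protein as *His3.3B*, was not called in any comparison. Its main probe had signals of 15.71, 15.43 and 15.65 at 14 °C, then of 16.96, 15.68 and 15.69 at 25 °C, then of 16.18, 16.18 and 16.23 at 30 °C in lacZ RNAi, and of 15.56, 15.52 and 15.51, of 15.82, 15.56 and 15.65, and of 16.27, 16.14 and 15.89 in H2Av RNAi. In both RNAi groups all 30 °C arrays lay above all 14 °C arrays, by -0.60 (SE 0.26, adjusted p = 0.0931) and -0.57 (SE 0.26, adjusted p = 0.0973) for 14 against 30 °C. With the arrays of the compared groups alone, both differences were called (adjusted p = 0.0374 and 0.0333). A single array, lacZ RNAi 25 °C replicate 1, lay 0.85 above its group mean. Without it, the H2Av RNAi difference at 25 °C went from -0.44 to -0.01, and the difference of 30 from 25 °C in lacZ RNAi went from 0.08 to 0.51 and was called (adjusted p = 0.0292). The other *His3.3A* probe shared the sign of the main probe in 3 of 10 comparisons, correlated with it at r of -0.544 over 18 arrays and had a larger median SD within groups (0.40 against 0.14), so the gene's direction rests on the main probe.

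*His4r* had the narrowest span of the members, with group means 0.63 apart at most. In lacZ RNAi its signals were 16.11, 16.46 and 15.89 at 14 °C, then 16.24, 16.07 and 16.24 at 25 °C, then 16.60, 16.43 and 16.50 at 30 °C. The H2Av RNAi arrays had 15.84, 16.11 and 16.24, then 15.84, 16.10 and 15.70, then 16.47, 16.17 and 16.10. The 30 °C arrays lay above the 25 °C arrays in both RNAi groups, whereas the 14 °C arrays overlapped both other temperatures in lacZ RNAi. The differences were 0.33 (SE 0.17, adjusted p = 0.205) in lacZ RNAi and 0.37 (SE 0.17, adjusted p = 0.188) in H2Av RNAi for 30 against 25 °C. The differences after H2Av RNAi were -0.09, -0.31 and -0.26 in order of temperature, and 0 of them were called. With 75th percentile scaling the H2Av RNAi differences of *His4r* at 14 and 30 °C changed sign (0.17 and 0.02), as did those of *His3.3A* (0.16 and 0.18). The medians of all probes under this scaling were 0.13 at 14 °C and 0.16 at 30 °C.

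**Figure D3:**
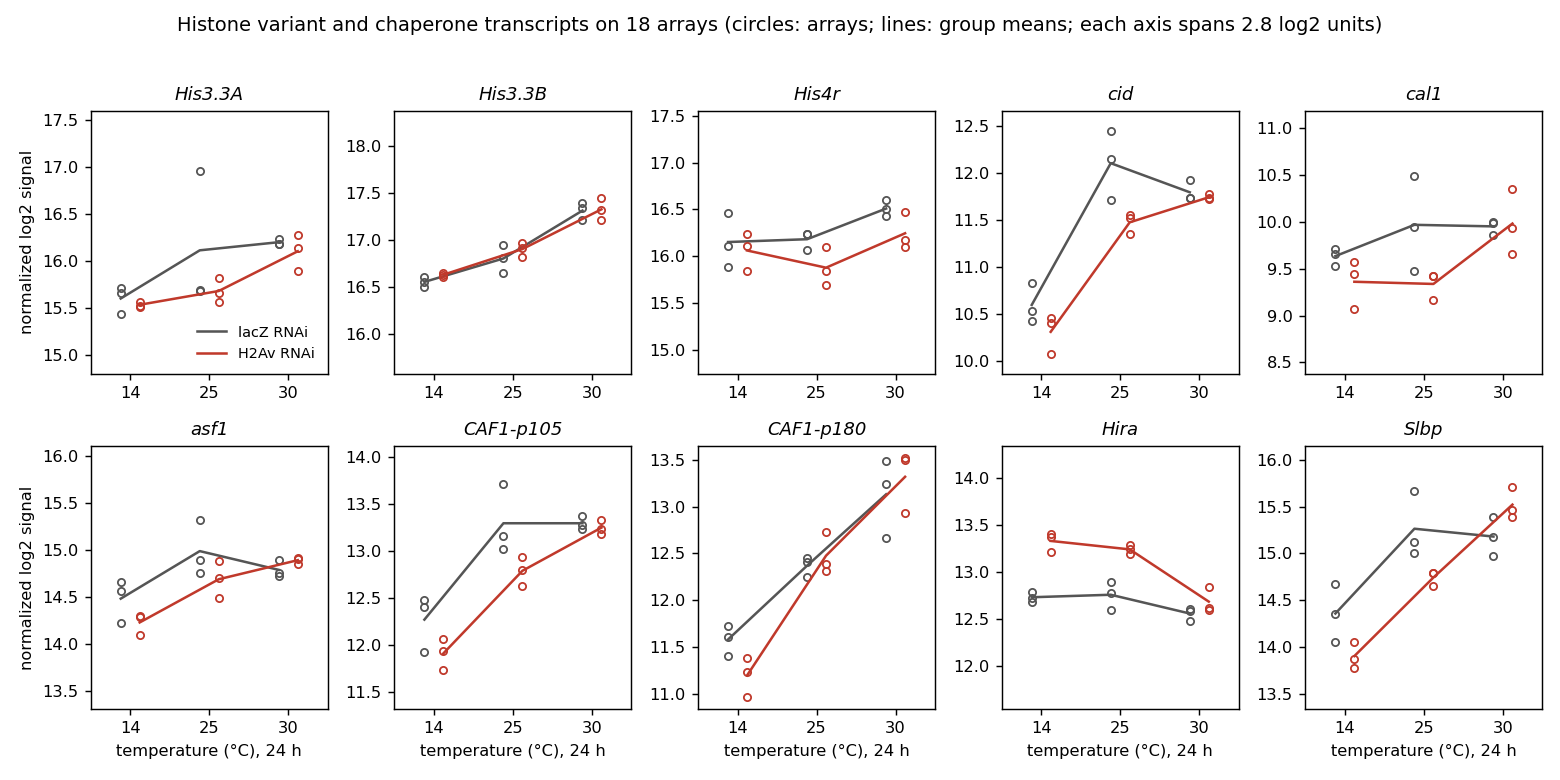
Normalized log2 signal (y axis) of the main probe of each member on every array, by temperature (x axis, equal steps), with circles for arrays and lines through the means of the 3 arrays of a group, lacZ RNAi in grey and H2Av RNAi in red. All panels span the same number of log2 units. The red *Hira* circles lie above the grey ones at 14 and 25 °C and overlap them at 30 °C. Within each RNAi group, the 14 °C circles of *cid*, *CAF1-p105*, *CAF1-p180* and *Slbp* lie below those of the warmer groups.

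The centromeric histone gene *cid* was among the members with the widest span, with group means 1.80 apart. In lacZ RNAi it had signals of 10.83, 10.53 and 10.42 at 14 °C, then of 12.45, 11.71 and 12.15 at 25 °C, then of 11.73, 11.92 and 11.73 at 30 °C. In H2Av RNAi it had 10.07, 10.45 and 10.40 at 14 °C, then 11.55, 11.35 and 11.52 at 25 °C, then 11.72, 11.77 and 11.73 at 30 °C. All 6 arrays at 14 °C were thus below all 12 arrays at 25 and 30 °C. The *cid* signal at 14 °C was 35.1% of that at 25 °C in lacZ RNAi (-1.51, SE 0.18, adjusted p = 0.000126) and 44.4% in H2Av RNAi (-1.17, SE 0.18, adjusted p = 0.000979). Against 30 °C it was 43.5% (-1.20, adjusted p = 0.000207) and 36.9% (-1.44, adjusted p = 3.67e-05), and these 4 calls were kept under all 26 alternatives. *Cenp-C*, the constitutive centromere protein that was listed beside *cid*, was lower at 14 °C in the same 4 comparisons, by -0.81 to -1.39.

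After H2Av RNAi, *cid* was lower at 25 °C, where the highest H2Av RNAi array (11.55) lay below the lowest lacZ RNAi array (11.71). The change was -0.63 (SE 0.18, adjusted p = 0.0218), which left 64.8% of the control signal. It was -0.29 at 14 °C (adjusted p = 0.395) and -0.05 at 30 °C (adjusted p = 0.907), and the arrays overlapped at both temperatures. The call for *cid* at 25 °C was lost without lacZ RNAi 25 °C replicate 1 (-0.45, adjusted p = 0.087), without lacZ RNAi 25 °C replicate 3 (adjusted p = 0.0532), without H2Av RNAi 25 °C replicate 2 (adjusted p = 0.0809) and with the arrays of these 2 groups alone (adjusted p = 0.126). With the temperatures averaged, the change was -0.32 (SE 0.11, adjusted p = 0.0271), and it was lost without lacZ RNAi 14 °C replicate 1 (adjusted p = 0.0607), H2Av RNAi 14 °C replicate 1 (adjusted p = 0.057) or H2Av RNAi 25 °C replicate 2 (adjusted p = 0.0557). At 25 °C, 3 of the 12 S phase genes were lower after H2Av RNAi and 0 higher (median -0.32), beside 15.9% of all probes lower, and their part in the *cid* difference was not tested.

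*cal1*, the gene of the loading factor for Cid, was not called in any comparison. It had signals of 9.71, 9.66 and 9.53 at 14 °C, then 9.47, 9.94 and 10.49 at 25 °C, then 10.00, 9.99 and 9.86 at 30 °C in lacZ RNAi. The H2Av RNAi arrays had 9.57, 9.07 and 9.44, then 9.42, 9.42 and 9.17, then 9.93, 9.66 and 10.35. At 25 °C the H2Av RNAi arrays of *cal1* were all below the lacZ RNAi arrays, by -0.63 (SE 0.24, adjusted p = 0.0618), a difference that did not pass. It was called without lacZ RNAi 25 °C replicate 1 (-0.87, adjusted p = 0.0155) and when probes had to be above background on all arrays (adjusted p = 0.0469). With 75th percentile scaling it was -0.17, where the median of all probes was 0.43. Within H2Av RNAi the 14 °C arrays lay below the 30 °C arrays (-0.62, SE 0.24, adjusted p = 0.0509), also without a call.

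Among the H3-H4 chaperones, the CAF-1 genes were lower in the cool in both RNAi groups. *CAF1-p180*, the large subunit gene, had the widest span of all members, with group means 2.12 apart. Its main probe had signals of 11.73, 11.41 and 11.61 at 14 °C, then 12.45, 12.41 and 12.25 at 25 °C, then 13.49, 12.66 and 13.24 at 30 °C in lacZ RNAi. In H2Av RNAi they were 11.39, 11.24 and 10.97, then 12.73, 12.31 and 12.39, then 13.50, 13.52 and 12.93. The temperatures did not overlap within either RNAi group. The signal at 14 °C was 34.1% of that at 30 °C in lacZ RNAi (-1.55, SE 0.22, adjusted p = 0.00013) and 23% in H2Av RNAi (-2.12, SE 0.22, adjusted p = 7.96e-06). Both differences were called under all 26 alternatives, and those of the gene's other probe were of like size (-1.57 and -1.75, adjusted p = 0.0167 and 0.0076).

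The steps of *CAF1-p180* on either side of 25 °C were smaller. From 25 to 14 °C the change was -0.79 (SE 0.22, adjusted p = 0.0224) in lacZ RNAi and -1.28 (SE 0.22, adjusted p = 0.00187) in H2Av RNAi. The former was lost without lacZ RNAi 14 °C replicate 2 (adjusted p = 0.0826), 14 °C replicate 3 (adjusted p = 0.0597) or 25 °C replicate 1 (adjusted p = 0.0606). From 25 to 30 °C *CAF1-p180* rose by 0.76 (SE 0.22, adjusted p = 0.0343) in lacZ RNAi and by 0.84 (SE 0.22, adjusted p = 0.0251) in H2Av RNAi. These rises were lost without lacZ RNAi 25 °C replicate 3, lacZ RNAi 30 °C replicate 1 or lacZ RNAi 30 °C replicate 3 (adjusted p = 0.0977, 0.142 and 0.117) and, in H2Av RNAi, without H2Av RNAi 25 °C replicate 2 or 3 or 30 °C replicate 1 or 2 (adjusted p = 0.0838 to 0.103). The other *CAF1-p180* probe, with a median SD within groups of 0.57 against 0.22, did not pass in these 4 comparisons (-0.86, -1.15, 0.71 and 0.60). The differences of *CAF1-p180* after H2Av RNAi were -0.38, 0.11 and 0.19 in order of temperature, and 0 of them were called.

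*CAF1-p105*, which encodes the middle subunit of CAF-1, was called between 14 and 25 °C and had equal means at 25 and 30 °C in lacZ RNAi (0.00, adjusted p = 0.998). Its signals there were 12.48, 11.93 and 12.40 at 14 °C, then 13.71, 13.02 and 13.16 at 25 °C, then 13.28, 13.24 and 13.37 at 30 °C. In H2Av RNAi they were 12.06, 11.73 and 11.94, then 12.94, 12.63 and 12.80, then 13.24, 13.33 and 13.18, which placed the 25 °C arrays between the other temperatures. The signal at 14 °C was 49.1% of that at 30 °C in lacZ RNAi (-1.03, SE 0.19, adjusted p = 0.000938) and 39.5% in H2Av RNAi (-1.34, SE 0.19, adjusted p = 9.36e-05). Against 25 °C the changes were -1.03 (adjusted p = 0.00206) and -0.88 (adjusted p = 0.00728). The former was lost with the arrays of the 2 groups alone (adjusted p = 0.0591).

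After H2Av RNAi all *CAF1-p105* arrays at 25 °C lay below the control arrays (-0.51, SE 0.19, adjusted p = 0.0626), and the difference was -0.36 at 14 °C and -0.05 at 30 °C. At 25 °C it was -0.30 without lacZ RNAi 25 °C replicate 1 (adjusted p = 0.248), and it was called without lacZ RNAi 25 °C replicate 2 (-0.64, adjusted p = 0.0281), with normexp background correction (-0.63, adjusted p = 0.0144), with the deposited matrix (-0.64, adjusted p = 0.0151) and when probes had to be above background on all arrays (adjusted p = 0.046). With the replicate number as a block it was also called (replicate block, adjusted p = 0.0356). The called change of *CAF1-p105* over all temperatures (-0.30, SE 0.11, adjusted p = 0.0429) was lost when any of 12 arrays was left out (adjusted p = 0.057 to 0.0892), namely lacZ RNAi 14 °C replicates 1 and 3, 25 °C replicate 1 and 30 °C replicates 1 and 3, and H2Av RNAi 14 °C replicates 2 and 3, 25 °C replicates 2 and 3 and all 3 at 30 °C.

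*asf1*, whose product passes H3-H4 on to both assembly routes, had a narrower span (0.76). Its signals in lacZ RNAi were 14.57, 14.66 and 14.22 at 14 °C, then 14.76, 14.89 and 15.32 at 25 °C, then 14.72, 14.76 and 14.89 at 30 °C. In H2Av RNAi they were 14.10, 14.29 and 14.30, then 14.70, 14.88 and 14.49, then 14.91, 14.85 and 14.92. All 6 arrays at 14 °C lay below the arrays of their own RNAi group at 25 and 30 °C. The change from 30 to 14 °C was -0.67 (SE 0.17, adjusted p = 0.00639) in H2Av RNAi, called at any fold under all 26 alternatives, and -0.31 (SE 0.17, adjusted p = 0.181) in lacZ RNAi. From 25 to 14 °C it was -0.46 (SE 0.17, adjusted p = 0.0861) in H2Av RNAi, which was called with normexp background correction (adjusted p = 0.0287), the deposited matrix (adjusted p = 0.0345) and array quality weights (adjusted p = 0.0445). In lacZ RNAi it was -0.51 (SE 0.17, adjusted p = 0.0436). That call for *asf1* was lost with the arrays of the 2 groups alone (adjusted p = 0.195), with the replicate block (adjusted p = 0.0519) and when any of 12 arrays was left out, at most 0.178 without lacZ RNAi 14 °C replicate 3 and 0.153 without lacZ RNAi 25 °C replicate 3. The other 10 arrays were lacZ RNAi 14 °C replicates 1 and 2 and 30 °C replicates 1 and 3, and H2Av RNAi 14 °C replicates 2 and 3, 25 °C replicate 1 and all 3 at 30 °C (adjusted p = 0.0502 to 0.0732).

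*Hira*, the chaperone gene of the replication-independent route, was higher after H2Av RNAi in the cool and at 25 °C. Its signals in lacZ RNAi were 12.68, 12.79 and 12.73 at 14 °C, then 12.60, 12.78 and 12.90 at 25 °C, then 12.61, 12.48 and 12.59 at 30 °C. In H2Av RNAi they were 13.22, 13.41 and 13.37 at 14 °C, then 13.19, 13.25 and 13.29 at 25 °C, then 12.62, 12.60 and 12.84 at 30 °C. The H2Av RNAi arrays at 14 and 25 °C lay above all 12 other arrays, and the H2Av RNAi arrays at 30 °C overlapped the controls. The rise was 1.51-fold at 14 °C (0.60, SE 0.12, adjusted p = 0.0104) and 1.39-fold at 25 °C (0.48, SE 0.12, adjusted p = 0.0128). At 30 °C the difference was 0.13 (95% interval from -0.14 to 0.39, adjusted p = 0.597). Averaged over the temperatures it was 0.40 (SE 0.07, adjusted p = 0.000649), or 1.32-fold. That averaged difference was called under all 26 alternatives, which hold no fold threshold, and it did not reach the 2-fold threshold.

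The 14 °C call of *Hira* was lost without lacZ RNAi 14 °C replicate 1 (0.57, adjusted p = 0.055) and with the arrays of the 2 groups alone (adjusted p = 0.0602), and the 25 °C call was lost with the arrays of its 2 groups alone (adjusted p = 0.118). Without lacZ RNAi 25 °C replicate 1, the array that correlated least with its group, the change at 25 °C was 0.40 (adjusted p = 0.0378). With 75th percentile scaling, where the median of all probes was 0.13 at 14 °C and 0.43 at 25 °C, the fit gave *Hira* changes of 0.64 and 0.41. Temperature changes of *Hira* were found in H2Av RNAi, with 0.64 (SE 0.12, adjusted p = 0.00107) for 14 against 30 °C and -0.55 (SE 0.12, adjusted p = 0.0114) for 30 against 25 °C. The latter was lost without H2Av RNAi 30 °C replicate 1 (adjusted p = 0.0506) or replicate 2 (adjusted p = 0.0548). In lacZ RNAi the corresponding differences were 0.18 (adjusted p = 0.315) and -0.20 (adjusted p = 0.269). The difference between the RNAi groups in the response to 14 against 30 °C was 0.47 (SE 0.18) and did not pass (adjusted p = 0.412).

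*Slbp* was lower in the cool and was the member whose response to temperature differed most between the RNAi groups, though without a call for that difference. In lacZ RNAi its signals were 14.67, 14.06 and 14.35 at 14 °C, then 15.67, 15.12 and 15.00 at 25 °C, then 14.97, 15.39 and 15.18 at 30 °C. In H2Av RNAi they were 13.88, 13.78 and 14.06, then 14.79, 14.65 and 14.79, then 15.39, 15.46 and 15.71. The H2Av RNAi arrays of each temperature kept apart from each other, and the arrays at 14 °C had the lowest signals in both RNAi groups. From 30 to 14 °C *Slbp* fell by 0.82 in lacZ RNAi (SE 0.20, adjusted p = 0.0059), to 56.7%, and by 1.62 in H2Av RNAi (SE 0.20, adjusted p = 2.8e-05), to 32.6%. The former call was lost with 75th percentile scaling (-0.59, adjusted p = 0.0737). Against 25 °C the changes of *Slbp* were -0.90 (adjusted p = 0.00575), not called with the arrays of the 2 groups alone (adjusted p = 0.0788), and -0.84 (adjusted p = 0.0122).

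H2Av RNAi arrays of *Slbp* were all below the control arrays at 14 °C, if by less than 0.01 for the nearest pair, and at 25 °C, by -0.46 (SE 0.20, adjusted p = 0.188) and -0.52 (SE 0.20, adjusted p = 0.0635). At 30 °C they were all above the controls, again narrowly for the nearest pair, by 0.34 (SE 0.20, adjusted p = 0.316). Of these differences, 0 passed, but that at 25 °C was called with normexp background correction (-0.59, adjusted p = 0.0237), with the deposited matrix (-0.59, adjusted p = 0.0246) and when probes had to be above background on all arrays (adjusted p = 0.047). Without lacZ RNAi 25 °C replicate 1 it was -0.32 (adjusted p = 0.249). In H2Av RNAi *Slbp* rose by 0.78 from 25 to 30 °C (SE 0.20, adjusted p = 0.0204), whereas the difference was -0.09 in lacZ RNAi. That rise was lost with 75th percentile scaling (adjusted p = 0.0577) and without any of the 3 H2Av RNAi 25 °C arrays or H2Av RNAi 30 °C replicates 2 or 3 (adjusted p = 0.0522 to 0.0815). The difference of these responses was 0.87 (SE 0.28, unadjusted p = 0.00787, adjusted p = 0.262).

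Whether H2Av RNAi altered the temperature response was tested for all members through the interaction. For 14 against 30 °C, 0 of 10 members were called, beside 0.321% of all probes higher and 0.0873% lower. The counts were also 0 of 10 for 14 against 25 °C, beside 0.00459% and 0%, and for 30 against 25 °C, beside 0.0551% and 0.739%. At an unadjusted p under 0.05 there were 2 members (*Hira* and *Slbp*), 0 members and 2 members (*cid* and *Slbp*), respectively. With array quality weights, *Hira* (0.58, adjusted p = 0.0191) and *Slbp* (-0.80, adjusted p = 0.0361) were called for 14 against 30 °C, beside 3.77% of all probes. A response that was called in 1 RNAi group and not in the other is therefore not shown to differ between them.

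The other histone chaperones, a list of 12 genes that were all measured, included the partner of Hira, *yem*, and the genes of the FACT subunits, *Ssrp* and *dre4*. After H2Av RNAi, averaged over the temperatures, *Ssrp* was higher (0.41, SE 0.07, adjusted p = 0.000655), and *yem* (-0.40, SE 0.09, adjusted p = 0.00229) and *Set* (-0.31, adjusted p = 0.027) were lower, beside a median of 0.02 over the list. *yem* thus changed in the opposite direction to *Hira*. In the comparison of 14 with 30 °C, 5 of 12 were lower and 0 higher in each RNAi group, beside 16.6% of all probes lower in lacZ RNAi and 20.2% in H2Av RNAi, namely *CAF1-p55*, the gene of the small CAF-1 subunit (-1.29 in lacZ RNAi, adjusted p = 0.000134), *XNP*, *dre4*, *Ssrp* and *Dek*. The list had a median change of -0.50 in lacZ RNAi and of -0.36 in H2Av RNAi. All 3 genes of CAF-1 were thus lower at 14 °C than at 30 °C in both RNAi groups.

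**Figure D4:**
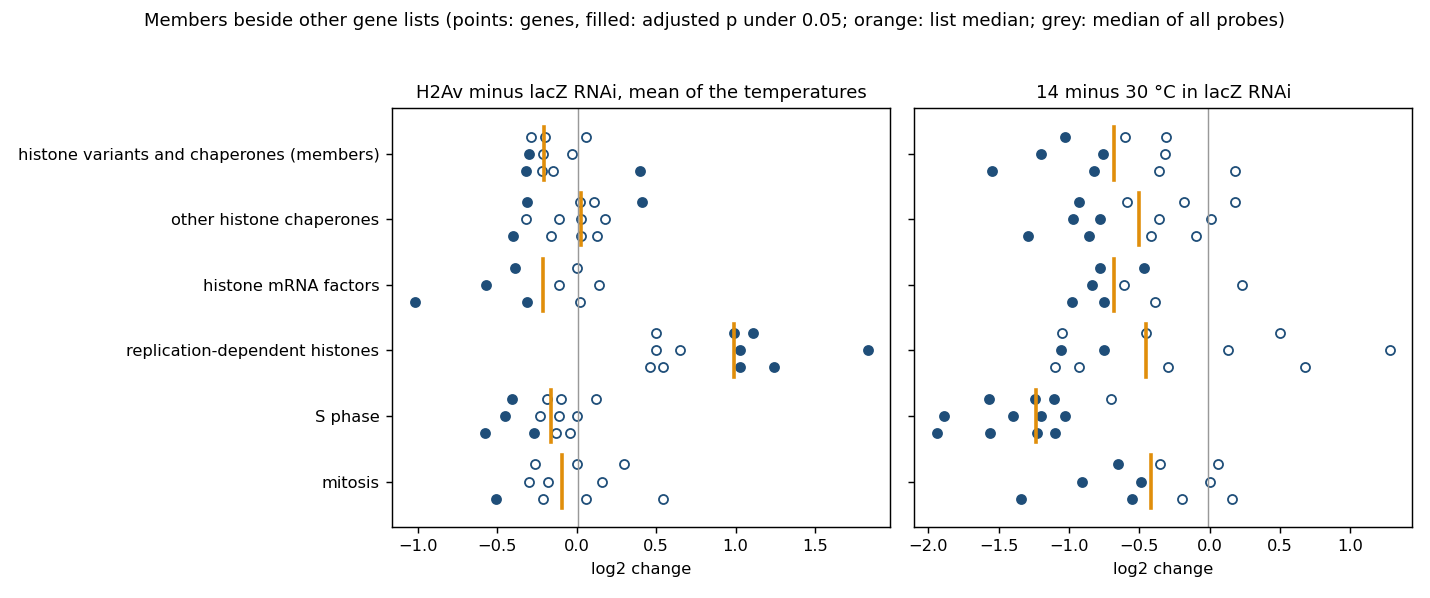
Log2 change of single genes (points) in the 10 members and in lists of related genes, for H2Av minus lacZ RNAi averaged over the temperatures (left) and for 14 minus 30 °C in lacZ RNAi (right), with filled points for an adjusted p under 0.05, orange bars for list medians and a grey line for the median of all probes. On the left the replication-dependent histones lie to the right of 0 (median 0.99) and the members mostly to the left (median -0.21). On the right the S phase genes (median -1.23) lie furthest to the left and the members have a median of -0.68.

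Factors that act with Slbp on histone mRNA were another list, of 8 genes. After H2Av RNAi, 4 of 8 were lower and 0 higher with the temperatures averaged (median -0.21), beside 19.8% of all probes lower. They were *Lsm11* (-1.02, SE 0.13, adjusted p = 4.94e-05) and *Lsm10* (-0.31, adjusted p = 0.045), which belong to the U7 particle that directs the cut, and *Cpsf100* (-0.57, adjusted p = 0.000146) and *Cpsf73* (-0.39, adjusted p = 0.00498) of the cleavage complex. At 14 °C 0 of 8 were called, beside 2.86% of all probes higher and 4.35% lower. At 25 °C 5 of 8 were lower, beside 15.9% of all probes. At 30 °C 2 of 8 were lower, beside 7.30% of all probes, namely *Lsm11* (-1.09, adjusted p = 0.00652) and *Cpsf100* (-0.75, adjusted p = 0.00425). *Slbp* itself was not called after H2Av RNAi at any temperature. Between 14 and 30 °C, 5 of 8 were lower in lacZ RNAi and 4 of 8 in H2Av RNAi, with 0 higher in either, beside 16.6% and 20.2% of all probes lower.

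Probes for replication-dependent histone genes went the other way after H2Av RNAi. Of 11 such symbols, 6 were higher and 0 lower with the temperatures averaged, beside 16.1% of all probes higher, with a median of 0.99 and a range from 0.46 to 1.83. At 14, 25 and 30 °C, 5, 6 and 4 were higher and 0 lower, beside 2.86%, 11.2% and 4.87% of all probes higher. Members of this cluster are near-identical copies, so that a probe may report several genes and the 11 symbols are not separate measurements. How far the labelling captured transcripts that end in the stem-loop, rather than polyadenylated forms, was not tested. A rise of these histone mRNAs as a whole is therefore not shown. In the comparison of 14 with 30 °C in lacZ RNAi, 2 of 11 were lower and 0 higher (median -0.45), a share near the 16.6% of all probes called lower. In H2Av RNAi 0 were lower and 1 was higher (median 0.10), and 0 of 11 were called for the interaction.

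Across the 18 arrays the signals of several members moved together. *CAF1-p105* correlated with *Slbp* at r of 0.949 and with *cid* at 0.94, and *cid* with *Slbp* at 0.907. After subtraction of the group means these values were 0.721, 0.48 and 0.591. All arrays of a group share its temperature and slide, so that these values describe the pattern only. For the 4 members whose group means spanned at least 1 log2 unit, the symbol with the most similar pattern among 9914 others was *hd* for *cid* (r of 0.98), *ana2* for *CAF1-p105* (0.988), *Orc1*, a subunit gene of the origin recognition complex, for *CAF1-p180* (0.97) and *Nuf2*, a kinetochore gene, for *Slbp* (0.979).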

How the data were processed

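The deposited scanner files held intensity values, which the authors had extracted with Feature Extraction 10.7.3.1 per the file headers, background-subtracted but not normalized between arrays. They also held deposited flags of 0 or 1. A deposited matrix held log2 values from the authors (column medians 7.2 to 7.21). Its scale is log2 and it is not gene-centred, but the signal it started from is not stated. Its row numbers could be matched to spots for 40930 of 43603 rows, and it served as an alternative. The number of value columns left unused was 0. Systematic names were matched to RefSeq symbols for 19546 of 32162 probes (60.8%). No sequences or positions are printed, because the names table and the array stem from different genome builds.

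Non-control log2 processed signals were quantile-normalized with limma 3.58.1 in R 4.3.3, flagged outlier spots (42 to 78 per array) were left out, and the median over a probe's spots was used. No non-control spot was saturated. Probes well above background on at least 2 of 3 arrays of at least 1 group were kept (21775). Linear models with 6 group means over 18 arrays were fitted with limma (two-sided), with Benjamini-Hochberg adjustment over all probes kept. CAF-1 subunit genes carry their RefSeq synonyms. A gene's main probe is its brightest. The number of arrays limits the precision. All 10 members are described. Other genes were named if a listed gene was called, or, for members spanning at least 1 log2 unit, if most similar. *hd*, *ana2*, *Orc1* and *Nuf2* came from that last part. Members and lists were chosen with earlier results of these data known. The fit was run on simulated data with independent noise and the same spread in all groups. Such data hold neither the pairing of replicates nor the unequal spread between groups, so they check the code alone. Residuals of same-numbered arrays correlated over 0.1 in all 3 pairs for the H2Av RNAi temperatures and for 14 against 30 °C in lacZ RNAi, which is a pairing seen in the data and not stated in the labels. Alternatives were scaling to the 75th percentile, normexp (offset 50, from the median signals and local backgrounds), the deposited matrix, other filters, a replicate block, array quality weights, only the groups compared, a 2-fold threshold and leaving out each array. The 26 alternatives counted for single calls hold all of these except the 2-fold threshold.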

Additional observations from a re-analysis of the deposited data

How the results depend on the processing

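Of 33 calls of a member in a comparison, 0 changed sign under any alternative. With array quality weights, normexp, the deposited matrix and probes above background on all arrays 33 were kept, with all probes kept 32, with scaling to the 75th percentile 28 and with only the groups compared 24. With 75th percentile scaling the median of all probes differed from 0 by more than 0.1 in several comparisons, at most at 0.43 for H2Av RNAi at 25 °C. The numbers of called members are given below with their main values, and where no cause is named the cause was not tested. With a 2-fold threshold added, which can only lower them, the counts were 0 for H2Av RNAi at 14 °C (1 before), at 25 °C (2) and for the mean (3), 3 in lacZ RNAi (5) and 4 in H2Av RNAi (7) for 14 against 30 °C, 2 in each for 14 against 25 °C (5 and 4), and 0 in each for 30 against 25 °C (2 and 4). With only the groups compared, they were 0 for H2Av RNAi at 14 and at 25 °C, beside 4.43% and 11.6% of all probes. In lacZ RNAi they were 2 for 14 against 25 °C and 0 for 30 against 25 °C, beside 10.4% and 0%. For 30 against 25 °C in H2Av RNAi, 22.1% of all probes were called in this way. The median SD of all probes within groups was 0.41 in lacZ RNAi 25 °C and 0.37 in lacZ RNAi 30 °C. It was 0.20 to 0.30 in the other groups. The main fit shares 1 estimate of the spread, and the part of this difference in the counts was not tested. Array quality weights gave 2, 4 and 1 for H2Av RNAi at 14, 25 and 30 °C, 8 for 14 against 30 °C in lacZ RNAi, 8 for 30 against 25 °C in H2Av RNAi and 2 for the interaction with 14 against 30 °C. Under these weights 17.2%, 36%, 38%, 52.4%, 42.5% and 3.77% of all probes were called in the same comparisons. For H2Av RNAi at 25 °C, normexp gave 4, the deposited matrix 4 and probes above background on all arrays 5. Scaling to the 75th percentile gave 1 and 2 for 30 against 25 °C in lacZ and H2Av RNAi. Leaving out single arrays gave 0 to 1 for H2Av RNAi at 14 °C, 1 to 3 at 25 °C, 1 to 3 for the mean, 3 to 5 and 0 to 3 in lacZ RNAi for 14 and for 30 against 25 °C, and 0 to 6 for 30 against 25 °C in H2Av RNAi.

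Replicate numbers paired some groups and not others. Same-numbered arrays of different groups deviated together (r over 0.1) in 25 of 45 pairs (r from -0.468 to 0.606), and 11 of 18 arrays correlated best with their own number. All 3 pairs passed between each pair of H2Av RNAi temperatures (lowest r 0.111) and between 14 and 30 °C in lacZ RNAi (lowest r 0.194), and not in the other comparisons reported. With the replicate block, 32 of 33 calls were kept and 1 was gained. The count went from 2 to 3 for H2Av RNAi at 25 °C and from 5 to 4 for 14 against 25 °C in lacZ RNAi, and the block changed no call in the 4 paired comparisons. All 13 member probes were well above background on all 18 arrays, so that background does not limit their values, while 3 arrays per group do.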
